A study of Mus musculus with 10 samples.

Results

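The tripartite motif (TRIM) family was examined in 10 CT26 tumors, using the rows of the deposited table whose gene symbol is Trim followed by a number. Trim25 was not part of the set, which left 68 Trim rows of 36009 rows in all. A row was a member when it averaged at least 1 CPM (the usual unit of counts scaled to library size) over the tumors, and 44 rows met this. The 24 rows under the minimum are taken up near the end. Membership used the level and not the difference between groups. Just inside the minimum lay Trim52, at a mean of 1.01 CPM, and Trim12a, at 1.28 CPM, and just outside lay Trim69, at 0.988 CPM, and Trim67, at 0.950 CPM. Trim52 averaged 1.14 CPM in responders and 0.834 CPM in non-responders, so the responders carried it over the minimum.

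TRIM proteins carry a RING domain, B-box zinc fingers and a coiled coil at their N terminus, and most of them are ubiquitin ligases, enzymes that attach ubiquitin to other proteins. The C terminus sets the subfamily. A B30.2 domain (also called PRY-SPRY) is found in many members of antiviral defense, a PHD finger with a bromodomain in members that bind chromatin, and NHL repeats in members that bind RNA or other proteins. Many family members adjust signaling from the receptors that sense double-stranded RNA, the kind of molecule that poly(I:C) imitates, and a part of the family is itself induced by interferon (IFN).

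CT26 is a mouse colorectal carcinoma cell line, here grown under the skin of wild-type female BALB/c mice, which is not its tissue of origin. The RNA came from the portion of each tumor removed at surgery, before a hydrogel loaded with poly(I:C) was placed on the residual tumor, so all 10 samples were untreated. The 6 responders later regressed completely and the 4 non-responders grew without delay. Within a group the numbers of tumors follow accession order and are only names, and p-values measure the spread between these tumors.

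Libraries held 23374649 to 38042544 estimated counts, and the 44 members took 0.183% to 0.20% of the counts of a library. Of 8 listed markers of colorectal epithelium, Epcam, Krt8, Krt18 and Vil1 stayed under 1 CPM in every tumor, so the tissue label rests on the cell line and not on these genes, and the 4 that were tested (Krt20, Cdh1, Cdx2 and Lgals4) summed to 22.3 to 47.8 CPM in responders and 43.8 to 88.7 CPM in non-responders. Leukocyte markers were higher in all 6 responders than in all 4 non-responders, with a summed level over 5 genes (Ptprc, Cd53, Coro1a, Laptm5, Cd52) of 1010 to 1536 CPM against 640.9 to 934.5 CPM, and 3 of the 5 genes passed the test. Summed T and NK cell markers ran from 170.4 to 425.9 CPM in responders and from 44.8 to 178.5 CPM in non-responders (10 of 10 genes higher, 2 called). Macrophage markers summed to 996.4 to 1449 CPM against 796.4 to 967.1 CPM (6 of 6 higher, 3 called), while fibroblast markers were at 5494 to 6578 CPM against 4662 to 7631 CPM (2 of 6 higher, 0 called by edgeR and 0 at an unadjusted p under 0.05). Adipocyte markers summed to 15.6 to 52.0 CPM against 8.54 to 18.9 CPM over the 4 genes tested, all 4 with an estimate above 0 and an unadjusted p under 0.05 and 0 called by edgeR, and their median log2 fold change was 2.05. In bulk tumor RNA, fewer cells of a type and less RNA per cell cannot be told apart.

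A sequence feature of the family is shown first, because the members that hold it lie mostly in 1 gene cluster. The core of the IFN-stimulated response element, spelled GAAANNGAA, was searched on both strands of RefSeq promoter windows of GRCm38.p6. Of the 44 members, 35 had a window. Of these 35, 10 (28.6%) held the core in any window, against 9.09% of tested genes with a window. Among the 9 members of the chromosome 7 cluster 6 held it (66.7%). Capitals mark 1 core or its reverse complement, and each stretch is written 5′ to 3′ on the strand of its gene. Trim21 and Trim26 each hold a second core that overlaps the marked one and is partly in lower case. Trim30a holds a second core in another of its windows (chr7:104446104-104446132), which is not printed.
Trim34a at chr7:104244458-104244486 (plus strand): ggtttggagtTTCAGTTTCttttctctgc
Trim12a at chr7:104315466-104315494 (minus strand): gagttgtggtTTCTGTTTCatttccagag
Trim34b at chr7:104329250-104329278 (plus strand): tccttctgccTTCTCTTTCctgtgccacc
Trim12c at chr7:104353359-104353387 (minus strand): gagttgtggtTTCTGTTTCatttccagct
Trim30a at chr7:104465210-104465238 (minus strand): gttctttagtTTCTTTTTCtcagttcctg
Trim30d at chr7:104507871-104507899 (minus strand): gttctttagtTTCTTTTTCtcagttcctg
Trim21 at chr7:102565451-102565479 (minus strand): cctctgagagGAAACTGAAagtgaaattt
Trim26 at chr17:36836977-36837005 (plus strand): cgcttccgatTTCACTTTCcttttctcgg

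The stretches of Trim30a and Trim30d were identical. Of the remaining members with a window, the core was found in Trim2 and Trim7, in 0 of 3 members of the chromatin group and in 0 of 4 members of the cytoskeleton and muscle group. A match is a description of these letters and not evidence of binding.

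Comparing responders with non-responders asks what in an untreated tumor goes with its later response. TRIM genes moved in both directions and mostly by little, as did all genes tested (median absolute log2 fold change 0.141 and 0.128). By edgeR's quasi-likelihood test at an adjusted p under 0.05, 6 of the 44 members were called (13.6%), against 8.06% of the 16041 genes tested. Of these, 2 were higher in responders, Trim72 and Trim14 (4.55% of members, against 4.71% of all genes), and 4 were lower, Trim32, Trim66, Trim33 and Trim46 (9.09% of members, against 3.35%). The estimates of 25 members lay above 0 and those of 19 below it (56.8% above, against 48.2% of all genes tested), but with a minimum of 5 CPM only 16 of 35 lay above 0 (45.7%). The median log2 fold change was 0.04 over the members and -0.01 over all genes tested.

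For 5 members the values of responders and non-responders were fully separate (11.4%, against 10.4% of all genes), 1 of them higher in responders (5.84% of all genes) and 4 lower (4.55% of all genes). At an unadjusted p under 0.05 stood 17 members (38.6%, against 29.1% of all genes), 11 higher and 6 lower. The calls depended on single tumors. Without non-responder 1, non-responder 4 or responder 3 no member was called by edgeR, with 12, 10 and 13 members respectively at an unadjusted p under 0.05, and without non-responder 2 there were 11 called members. Over all genes these fits called 16, 0 and 17 genes without the first 3 tumors and 1897 without non-responder 2, against 1293 with all tumors, so the calls of the whole table went with those of the members. All 6 called members kept the sign of their difference in each of 18 alternative fits.

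**Figure D1:**
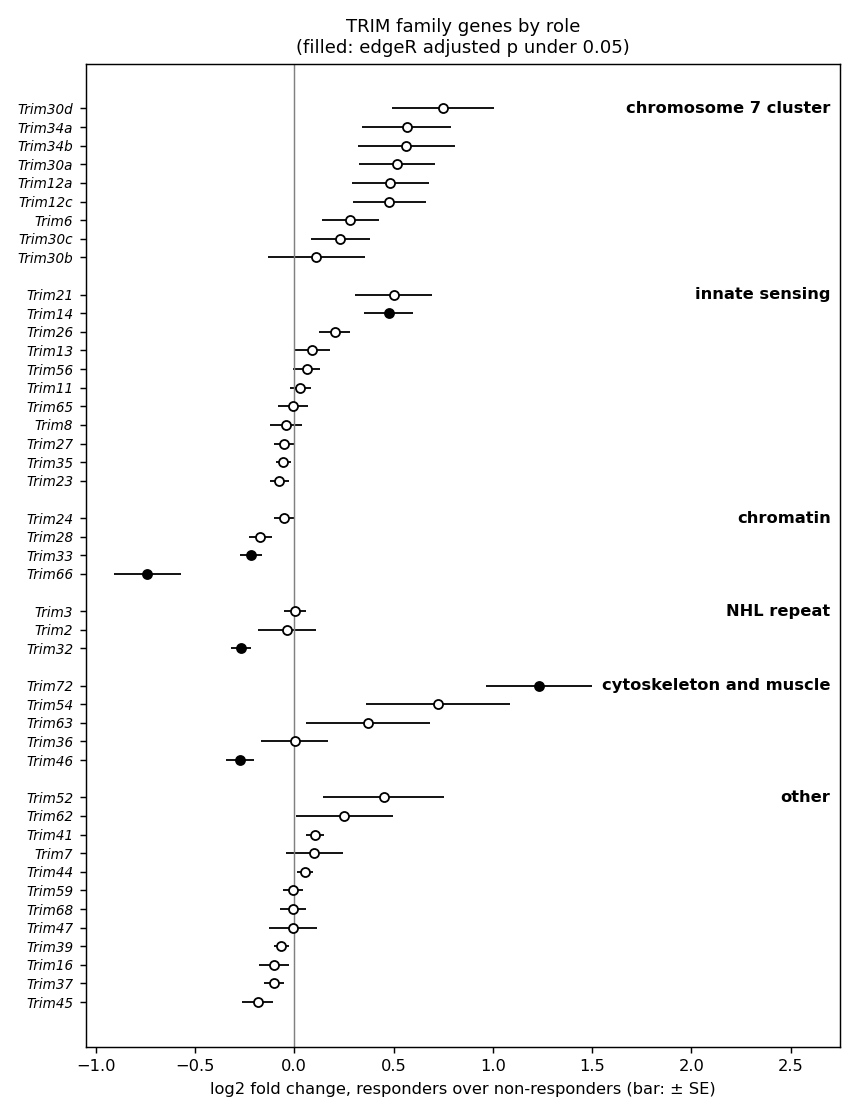
Log2 fold change of each of the 44 TRIM genes (x axis, responders over non-responders), with its standard error as a bar and genes grouped by role on the y axis. Filled points mark the 6 genes with an edgeR adjusted p under 0.05, and all 9 genes of the chromosome 7 cluster sit to the right of 0 while all 4 of the chromatin group sit to the left.

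Chromatin-binding members were lower in responders in 4 of 4 estimates, and 2 of them were called (50%, against 8.06% of all genes tested). This group, Trim24, Trim28, Trim33 and Trim66, shares a PHD finger and a bromodomain. Its median log2 fold change was -0.19. Trim66 (ENSMUSG00000031026, GRCm38 chromosome 7, 109449006 to 109508134, minus strand), a corepressor best known from the testis, showed the largest decrease of the family. It was measured at a lowest value of 3.97, a median of 6.09 and a highest value of 8.22 CPM in responders and at 10.5, 8.44, 11.9 and 10.1 CPM in non-responders 1 to 4. Every responder was below every non-responder, with 6.14 ± 1.43 CPM (SD, n = 6) against 10.2 ± 1.43 CPM (SD, n = 4). By edgeR the log2 fold change was -0.74 ± 0.17 (SE), with an adjusted p of 0.0334.

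Trim33 (ENSMUSG00000033014, chromosome 3, 103279293 to 103358775, plus strand), a ubiquitin ligase for Smad4 in TGF-beta signaling, ranged from 60.9 through a median of 68.0 to 71.0 CPM in responders and was at 83.1, 76.4, 77.7 and 73.3 CPM in non-responders 1 to 4. The groups did not overlap. Trim33 averaged 66.8 ± 4.27 CPM (SD, n = 6) against 77.6 ± 4.09 CPM (SD, n = 4), a small decrease of 0.22 on the log2 scale (edgeR log2 fold change -0.22 ± 0.05 SE, adjusted p = 0.0404).

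Trim28, the corepressor that KRAB zinc finger proteins recruit to silence retroelements, was the most abundant member per transcript length, at 78.6 CPM per kb. Its level was 243.1 ± 12.6 CPM in responders (SD, n = 6), from 226.6 to 259.4 CPM, and 284.7, 247.5, 263.5 and 298.7 CPM in non-responders 1 to 4. Non-responder 2 lay within the responder range, and the difference did not pass the threshold (edgeR log2 fold change -0.17 ± 0.06 SE, adjusted p = 0.089). Trim24, a coregulator of nuclear receptors, was at 36.7 ± 1.97 CPM (SD, n = 6) against 38.1 ± 1.71 CPM (SD, n = 4), with overlapping groups (edgeR log2 fold change -0.05 ± 0.05 SE, adjusted p = 0.538).

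Among the NHL repeat members Trim32 was lower in responders, and the estimates of Trim2 and Trim3 were near 0. Trim32 (ENSMUSG00000051675, chromosome 4, 65604986 to 65616238, plus strand), a ubiquitin ligase whose loss causes a limb-girdle muscular dystrophy, had the smallest p of the family. It ran from 23.3 through a median of 24.3 to 25.7 CPM in responders and stood at 29.9, 28.4, 31.4 and 28.3 CPM in non-responders 1 to 4. No responder reached the lowest non-responder, and the levels of 24.5 ± 0.971 CPM (SD, n = 6) and 29.5 ± 1.46 CPM (SD, n = 4) differed by a log2 fold change of -0.27 ± 0.05 (SE; adjusted p by edgeR = 0.0243). The call was made in 7 of the 10 fits that leave out a tumor, more than for any other member. Trim72 was called in 5 of these fits, Trim66 in 4, Trim33 in 3, and Trim14 and Trim46 in 2 each.

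Trim2, which ubiquitinates neurofilament light chain, was at 24.0 ± 3.83 CPM (SD, n = 6) against 24.5 ± 5.38 CPM (SD, n = 4; edgeR log2 fold change -0.04 ± 0.15 SE, adjusted p = 0.899). Responder 6 stood apart within its group at 31.6 CPM. Trim3, a ligase of endosomes and synapses, was at 57.6 ± 2.13 CPM (SD, n = 6) against 57.5 ± 5.01 CPM (SD, n = 4; edgeR log2 fold change 0.00 ± 0.06 SE, adjusted p = 0.977).

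The 5 members that act on the cytoskeleton or in muscle included 1 called increase and 1 called decrease (40% called, against 8.06% of all genes). Trim72 (ENSMUSG00000042828, chromosome 7, 128003949 to 128011033, plus strand), which encodes a protein of membrane repair in striated muscle, had the largest fold change of the family. Its level ran from 4.65 through a median of 6.21 to 10.9 CPM in responders and was 2.22, 3.96, 2.99 and 2.56 CPM in non-responders 1 to 4. All responders lay above all non-responders, at 6.89 ± 2.42 CPM (SD, n = 6) against 2.93 ± 0.752 CPM (SD, n = 4). The edgeR estimate on the log2 scale was 1.23 ± 0.27 (SE, adjusted p = 0.031).

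Skeletal muscle markers moved with Trim72. All 8 listed genes (Acta1, Ckm, Myh1, Myh4, Mylpf, Tnnt3, Actn3, Mb) were higher in responders by their estimates, 3 of them called (Acta1, Ckm and Myh1), and their summed level was 493.7 to 1348 CPM in responders and 362.5 to 490.4 CPM in non-responders. The 10 tumors had the same order by Trim72 as by this sum. Per 1000 CPM of muscle markers, a ratio computed after the values were seen, Trim72 stood at 7.66 to 9.43 CPM in responders and 6.13 to 8.07 CPM in non-responders, which overlap. The part of muscle or fat content in the difference was not tested.

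**Figure D2:**
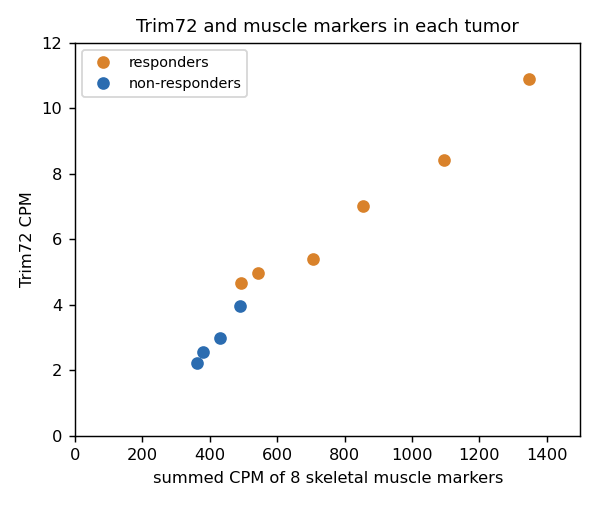
Trim72 in CPM (y axis) against the summed CPM of 8 skeletal muscle markers (x axis), with a point for each tumor. The 4 non-responders sit at the lower left, at 362.5 to 490.4 CPM of muscle markers, and both measures rank the 10 tumors alike.

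Trim54 and Trim63, MuRF proteins of the muscle sarcomere, are named here beside Trim72 after their values were seen. Trim54 had a log2 fold change of 0.72 ± 0.36 (SE; adjusted p by edgeR = 0.211) and Trim63 of 0.37 ± 0.31 (SE; adjusted p by edgeR = 0.459), both with overlapping groups. Trim54 ran from 1.09 to 3.72 CPM in responders and from 1.15 to 1.79 CPM in non-responders. The lowest of the 10 values was in responder 4. Trim54 had the same rank as the muscle marker sum in 5 of 10 tumors and Trim63 in 2 of 10. Per 1000 CPM of these markers Trim54 was at 2.21 to 3.36 CPM in responders and 3.01 to 4.46 CPM in non-responders. By the same ratio Trim63 was at 2.60 to 5.59 CPM against 4.35 to 7.38 CPM.

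Trim46 (ENSMUSG00000042766, chromosome 3, 89234177 to 89246309, minus strand), which bundles microtubules at the start of axons, was called lower. It ran from 11.4 through a median of 12.8 to 13.1 CPM in responders and was at 16.6, 13.8, 14.4 and 15.5 CPM in non-responders 1 to 4. The groups were apart, at 12.5 ± 0.662 CPM (SD, n = 6) against 15.1 ± 1.25 CPM (SD, n = 4). On the log2 scale edgeR put the difference at -0.27 ± 0.07 (SE, adjusted p = 0.041). Krtcap2, a neighbor on the opposite strand whose span overlaps Trim46 by 344 bases, was also lower in responders (log2 fold change -0.19, edgeR adjusted p = 0.0398). Of all runs of 31 bases in Trim46 transcripts, 5.48% also occur in Krtcap2 on either strand, and the strand setting of the counting was not given, so the values of this pair are uncertain.

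**Figure D3:**
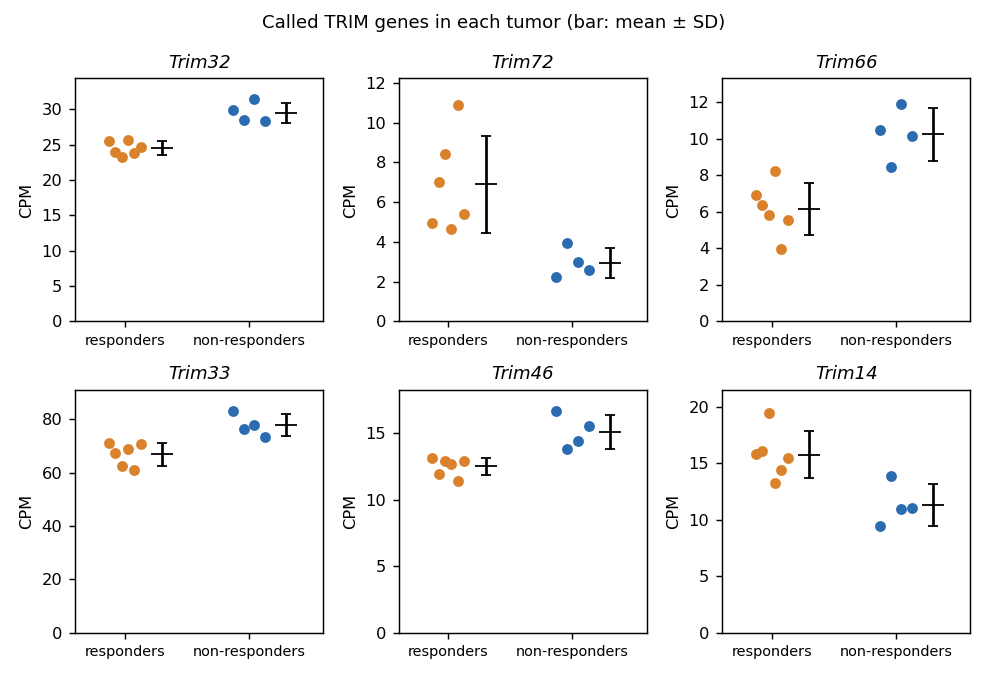
Level of the 6 called TRIM genes in each tumor (y axis, CPM from 0), with points for responders and non-responders and a bar for the mean ± SD of each group. For Trim32, Trim66, Trim33 and Trim46 every responder lies below every non-responder, for Trim72 every responder lies above, and for Trim14 the groups overlap.

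Members linked to innate sensing held 1 called gene of 11 (9.09%, against 8.06% of all genes tested). Of their estimates 6 were above 0 and 5 below it. Trim14 (ENSMUSG00000039853, chromosome 4, 46493781 to 46536141, minus strand), an adaptor that lacks a RING domain and joins the MAVS complex downstream of RIG-I, was higher in responders. It ran from 13.2 through a median of 15.6 to 19.4 CPM in responders and was at 9.41, 13.9, 10.9 and 11.04 CPM in non-responders 1 to 4. Only non-responder 2 reached into the responder range. Trim14 averaged 15.7 ± 2.08 CPM (SD, n = 6) against 11.3 ± 1.87 CPM (SD, n = 4). EdgeR gave a log2 difference of 0.47 ± 0.12 (SE, adjusted p = 0.0425). Its span overlaps that of Nans on the opposite strand by 9852 bases, and 30.4% of its runs of 31 bases also occur in Nans. Nans itself was level between the groups by its estimate, at 60.6 ± 4.18 CPM (SD, n = 6) against 61.3 ± 1.61 CPM (SD, n = 4; log2 fold change -0.02, edgeR adjusted p = 0.871).

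Trim21, the cytosolic antibody receptor that marks antibody-coated virus for the proteasome, was at 48.7 to 66.2 CPM in responders, with a median of 56.2 CPM, and at 22.5, 56.0, 44.5 and 36.9 CPM in non-responders 1 to 4. Non-responder 1 was far below every other tumor and non-responder 2 lay at the responder median. The log2 fold change of Trim21 was 0.50 (SE 0.20) and missed the threshold (edgeR adjusted p = 0.119). Trim26, a B30.2 member encoded beside the MHC class I genes, was at 107.0 ± 6.94 CPM (SD, n = 6) against 92.9 ± 11.3 CPM (SD, n = 4; edgeR log2 fold change 0.20 ± 0.08 SE, adjusted p = 0.113), again with non-responder 1 lowest, at 77.0 CPM.

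Trim56 and Trim35 were, with Trim28, the members with the most counts. Trim56, a ligase tied to signaling from cytosolic DNA and double-stranded RNA, was at 178.9 ± 10.9 CPM (SD, n = 6) against 171.4 ± 16.7 CPM (SD, n = 4; edgeR log2 fold change 0.06 ± 0.07 SE, adjusted p = 0.580). Trim35 was at 141.7 ± 4.39 CPM (SD, n = 6) against 147.2 ± 5.60 CPM (SD, n = 4; edgeR log2 fold change -0.06 ± 0.04 SE, adjusted p = 0.370). Trim23, which carries an ARF-type GTPase domain, was at 24.9 ± 0.759 CPM (SD, n = 6) against 26.3 ± 1.37 CPM (SD, n = 4; edgeR log2 fold change -0.08 ± 0.05 SE, adjusted p = 0.330). None of these 3 passed the threshold, and for each the groups overlapped. The other 5 members of this group, Trim8, Trim11, Trim13, Trim27 and Trim65, had log2 fold changes from -0.05 to 0.09, with edgeR adjusted p from 0.557 to 0.972.

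In the TRIM cluster of chromosome 7 all estimates had the same direction and edgeR made no call, while DESeq2 called Trim30d (adjusted p = 0.0230) and Trim30a (adjusted p = 0.0379). Its 9 members, from Trim6 at 104218793 to the end of Trim30d at 104507849, are related to the human retroviral restriction factor TRIM5. Of their estimates 9 of 9 were above 0. The median log2 fold change was 0.48 (range 0.11 to 0.75), and the edgeR adjusted p ran from 0.0855 to 0.801. By the same test 6 of the 9 (66.7%) had an unadjusted p under 0.05, against 29.1% of all genes tested. Several of the genes share transcript sequence, so the 9 values are not separate measurements.

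Trim30d had the largest estimate of the cluster. It was at 16.0 to 23.5 CPM in responders, with a median of 19.3 CPM, and at 5.21, 16.8, 14.1 and 9.92 CPM in non-responders 1 to 4 (edgeR log2 fold change 0.75 ± 0.26 SE, adjusted p = 0.0855). Only non-responder 2 lay among the responders, above 2 of them.

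Trim30a (ENSMUSG00000030921, 104409025 to 104465193, minus strand), an inhibitor of Toll-like receptor signaling that removes TAB2 and TAB3, had the highest level of the cluster per transcript length, at 28.2 CPM per kb. Its value was 102.2 to 139.2 CPM in responders, with a median of 117.4 CPM, and 47.1, 108.3, 101.8 and 81.0 CPM in non-responders 1 to 4. Only non-responder 2 overlapped, above 1 responder (edgeR log2 fold change 0.52 ± 0.19 SE, adjusted p = 0.103). Trim12c ranged from 65.3 to 80.9 CPM in responders, with a median of 71.3 CPM, and was at 29.7, 70.6, 60.1 and 46.8 CPM in non-responders 1 to 4 (edgeR log2 fold change 0.48 ± 0.18 SE, adjusted p = 0.114). Trim34a followed the same order in non-responders, at 3.80, 11.2, 9.28 and 6.64 CPM against 10.2 to 12.5 CPM in responders, with a median of 11.5 CPM (edgeR log2 fold change 0.57 ± 0.22 SE, adjusted p = 0.123).

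The remaining cluster genes had a larger edgeR p than Trim30d, Trim30a, Trim12c and Trim34a. Trim34b was at 12.4 ± 1.73 CPM (SD, n = 6) against 8.43 ± 3.63 CPM (SD, n = 4; edgeR log2 fold change 0.56 ± 0.24 SE, adjusted p = 0.150). Trim12a, near the limit for membership, was at 1.44 ± 0.220 CPM (SD, n = 6) against 1.03 ± 0.251 CPM (SD, n = 4; edgeR log2 fold change 0.48 ± 0.19 SE, adjusted p = 0.124). Trim12a was lowest in non-responder 3, where the other 8 cluster genes were lowest in non-responder 1.

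Trim6, which with its human counterpart is known for ubiquitin chains that activate the kinase IKK epsilon, was at 2.14 ± 0.282 CPM (SD, n = 6) against 1.75 ± 0.188 CPM (SD, n = 4; edgeR log2 fold change 0.28 ± 0.14 SE, adjusted p = 0.220). Trim30c was at 4.46 ± 0.619 CPM (SD, n = 6) against 3.79 ± 0.710 CPM (SD, n = 4; edgeR log2 fold change 0.23 ± 0.15 SE, adjusted p = 0.330), and Trim30b at 9.75 ± 2.74 CPM (SD, n = 6) against 9.06 ± 3.18 CPM (SD, n = 4; edgeR log2 fold change 0.11 ± 0.24 SE, adjusted p = 0.801). Trim6, Trim30b and Trim30c had no GAAANNGAA core in their windows.

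A single tumor carried a part of the difference, not all of it. For 8 of the 9 cluster genes the lowest tumor was non-responder 1. The median over the cluster of log2 CPM relative to the mean of each gene was -1.06 in non-responder 1, -0.40 in non-responder 4, -0.04 in non-responder 3 and 0.15 in non-responder 2, while the 6 responders lay between 0.08 and 0.31. Non-responder 2 was thus inside the responder range. Without non-responder 1 the estimates of Trim30d, Trim30a, Trim12c and Trim34a were 0.52, 0.33, 0.29 and 0.35, and that of Trim30b turned to -0.02. The unadjusted edgeR p of Trim30d, Trim30a, Trim12c and Trim34a ran from 0.0134 to 0.0296, beside 0.0137 to 0.0278 with all tumors. Their edgeR adjusted p ran from 0.128 to 0.175 in this fit, which called 16 genes over the whole table. Without non-responder 2 the calls included Trim30d, Trim12c and Trim34a from this cluster.

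**Figure D4:**
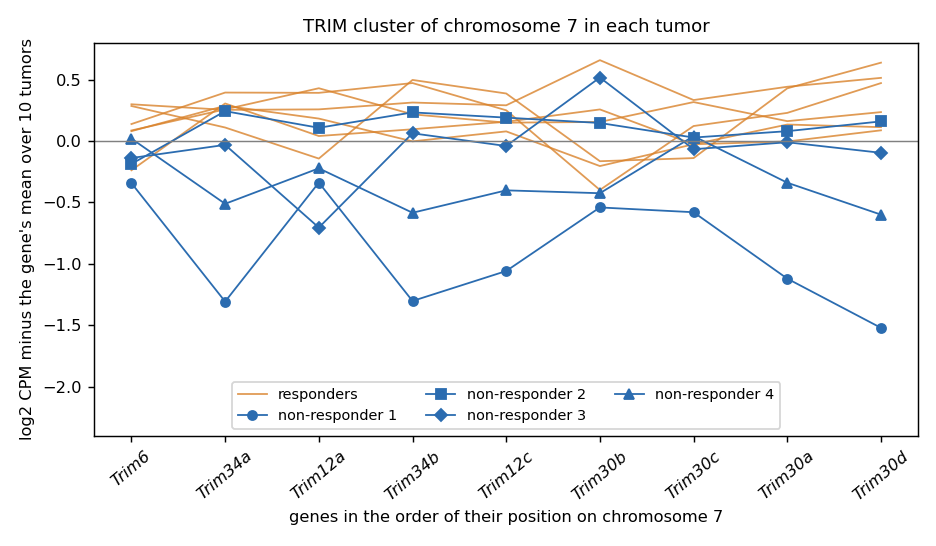
Log2 CPM of the 9 TRIM genes of the chromosome 7 cluster in each tumor (y axis, relative to the mean of each gene over 10 tumors), with genes in the order of their position on the x axis and a line for each tumor. Non-responder 1 is the lowest line at 8 of 9 genes, and non-responder 2 runs among the 6 responders.

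Shared sequence limits how far the genes of this cluster can be separated. Of the 31-base runs of Trim34b transcripts 69.0% also occur in Trim34a, and 48.7% of those of Trim34a occur in Trim34b. Trim12c shares 38.7% of its runs with Trim5, a row at 0.0893 to 0.427 CPM that was not a member, and 11.2% with Trim12a. When such genes were summed, a step added after the data were seen, Trim34a with Trim34b gave a log2 fold change of 0.56 (edgeR adjusted p = 0.128), Trim12a, Trim12c and Trim5 together 0.48 (edgeR adjusted p = 0.108), and Trim30a with Trim30d 0.55 (edgeR adjusted p = 0.0997).

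Genes known to be induced by IFN showed a like order of tumors. In a list of 20 (among them Isg15, Ifit1, Mx1, Rsad2 and Oasl2), 20 of 20 estimates were above 0. An unadjusted edgeR p under 0.05 was reached by 15 of the 20, against 29.1% of all genes tested. Only 1 of the 20 was called, Bst2 (log2 fold change 0.55, edgeR adjusted p = 0.0378), against 8.06% of all genes tested. The median of these 20 genes was 0.57 on the log2 scale. Their summed level was 2054 to 2686 CPM in responders and 661.6, 2132, 1878 and 1320 CPM in non-responders 1 to 4. Non-responder 1 was lowest for 20 of the 20 genes, and its median log2 CPM relative to the mean of each gene was -1.27, beside the -1.06 of the TRIM cluster. Leukocyte markers summed to 640.9 CPM in non-responder 1, the lowest of the 10 tumors. The part of leukocyte content in the level of the cluster was not tested.

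Partners of TRIM proteins in RNA and DNA sensing were read from a list of 15 genes, of which 12 had estimates above 0. EdgeR called 2 of the 15, against 8.06% of all genes tested, and the median log2 fold change of the list was 0.12. Ikbke, the kinase IKK epsilon, was higher in responders (log2 fold change 0.50, edgeR adjusted p = 0.0341). Mavs, the mitochondrial adaptor of RIG-I and MDA5, was lower in responders (log2 fold change -0.22, edgeR adjusted p = 0.0391), the opposite sign to Trim14, which binds it. Ifih1, which encodes MDA5, had an estimate of 0.51 (edgeR adjusted p = 0.0925) and Ddx58, which encodes RIG-I, of 0.26 (edgeR adjusted p = 0.239). Of 5 family members that bear other names, Pml, Mid1, Mid2, Mefv and Rnf207, none was called by edgeR, 2 (Pml and Mid1) had an unadjusted p under 0.05, and 4 had estimates above 0.

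The 12 members in none of these role groups held no call by edgeR. An unadjusted p under 0.05 was reached by 2 of them (16.7%, against 29.1% of all genes tested). Trim45, a repressor of MAP kinase signaling, was at 8.05 ± 0.298 CPM (SD, n = 6) against 9.14 ± 0.908 CPM (SD, n = 4; edgeR log2 fold change -0.18 ± 0.08 SE, adjusted p = 0.138). Trim41, named after its values were seen, had a log2 fold change of 0.10 ± 0.05 (SE; adjusted p by edgeR = 0.155). Trim37, a ligase of peroxisomes and centrioles, was at 55.0 ± 2.53 CPM (SD, n = 6) against 59.0 ± 3.63 CPM (SD, n = 4; edgeR log2 fold change -0.10 ± 0.05 SE, adjusted p = 0.198). Trim39, a regulator of apoptosis and cell cycle ligases, was at 55.0 ± 1.998 CPM (SD, n = 6) against 57.6 ± 0.792 CPM (SD, n = 4; edgeR log2 fold change -0.06 ± 0.04 SE, adjusted p = 0.274). Trim52, the lowest member, was at 1.14 ± 0.149 CPM (SD, n = 6) against 0.834 ± 0.422 CPM (SD, n = 4; edgeR log2 fold change 0.45 ± 0.30 SE, adjusted p = 0.351). The other 7 (Trim7, Trim16, Trim44, Trim47, Trim59, Trim62 and Trim68) had log2 fold changes from -0.10 to 0.25, with edgeR adjusted p from 0.374 to 0.973.

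Across the family the extremes fell on few tumors. Non-responder 1 was the lowest tumor for 17 of the 44 members and the highest for 8, and responder 5 was the highest for 12. The same tumors had the lowest and the highest sums of leukocyte, macrophage, T and NK cell, and skeletal muscle markers, for example 640.9 and 1536 CPM for leukocytes and 362.5 and 1348 CPM for muscle. Non-responder 1 also had the highest sums of fibroblast markers, at 7631 CPM, and of colorectal epithelium markers, at 88.7 CPM. Summed over members, the level was 1907 to 2015 CPM in responders and 1832 to 1935 CPM in non-responders, which overlap.

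Per transcript length, Trim28 was followed by Trim35 at 39.1, Trim59 at 32.7, Trim26 at 31.6 and Trim47 at 30.3 CPM per kb, and the lowest were Trim36 at 0.450 and Trim52 at 0.329 CPM per kb. Of the 24 rows under the minimum, 8 were tested and none was called by edgeR. Trim69 ran from 0.655 to 2.18 CPM over the 10 tumors (log2 fold change -0.65, edgeR adjusted p = 0.156), and Trim67 from 0.705 to 1.32 CPM (log2 fold change 0.12, edgeR adjusted p = 0.740). Trim60 and Trim61 had 0 counts in every tumor, which allows a level of up to 0.0789 to 0.128 CPM per library (3 counts, counting error only).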

How the data were processed

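PolyA RNA was sequenced from 6 responders and 4 non-responders. Per the labels and methods, the authors quantified reads with Kallisto on GRCm38 and summed transcripts to genes with tximport. The annotation release, scaling option and strand setting are not given in the sources used here. The deposited file thus holds the authors' estimated counts per gene, without depth scaling, of which 44.8% were fractional at a tolerance of 1e-06. Rows without a gene name (9633, holding 1.04% to 1.23% of counts) stayed in. BALB/c reads were assigned to a reference of another strain.

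Counts were rounded and fitted over 16041 genes (filterByExpr, minimum count 10) with edgeR 4.0.16 in R 4.3.3, using TMM and the quasi-likelihood test, two-sided. P-values were adjusted by Benjamini-Hochberg over all genes tested (threshold 0.05). A prior count of 2 entered log2 CPM. The fit was tested on simulated data. All 45 pairs of libraries differed beyond sampling noise (chi-square per degree of freedom of 10.05 to 111.2). Coordinates and lengths are from a GENCODE annotation of GRCm38 (35912 identifiers matched). Alternatives used DESeq2 1.42.0, limma 3.58.1, other scalings, filters and members, and each tumor left out.

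The members, role groups and lists were chosen with earlier results of these data known. Named with values are called members, the 6 further with the smallest p per direction, the cluster, chromatin and NHL groups, the 3 with the highest CPM, and 2 rows on each side of the minimum; others are marked. Protein identity between cluster members was not analysed here. A second promoter motif that was searched is not reported here.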

Additional observations from a re-analysis of the deposited data

Results flagged for a closer look

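In 88 groups of values (each of 44 members in each response group), the gap between an extreme tumor and its nearest neighbor was compared with Dixon's 95% critical value, which chance passes in about 1 of 20 groups, or 4.4 of 88. There were 2 such values, fewer than that. Trim2 in responder 6 was at 4.98 log2 CPM, above the 4.41 to 4.55 log2 CPM of the other 5 responders. Trim68, a member named here only for this value, was at 3.67 log2 CPM in non-responder 1, below the 3.88 to 3.91 log2 CPM of the other 3 non-responders.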

How the results depend on the processing

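No paired analysis was possible because the replicate numbers were given in accession order and pair no tumors. Leaving out each tumor in turn gave 0 to 11 called members (6 with all tumors), 24 to 29 estimates above 0 and a median of 0.02 to 0.06. The groups did not overlap for 5 to 15 members (15 without non-responder 2). With fewer tumors the groups of any gene separate more easily. The share over all genes was not computed for these fits, so the 5 to 15 members have no background to be read against. The sensing partners called ranged from 0 to 5 and the IFN-induced genes called from 0 to 10. The genes called over the whole table ranged from 0 without non-responder 4 to 1897 without non-responder 2. With DESeq2 there were 9 called members, 4 called sensing partners and 8 called IFN-induced genes, and 2602 called genes in all. With no filter on low counts 4 members, 1 sensing partner and 927 genes in all were called. At an adjusted p under 0.1 edgeR called 8 of the 44 members, 4 sensing partners and 5 IFN-induced genes. At that threshold it called 2999 of the 16041 genes tested. A minimum of 5 CPM for membership left 16 of 35 estimates above 0 and a median of -0.00545. Why these counts moved was not tested.

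Members near 0 changed sign. The log2 fold change of Trim36 was -0.000101 by limma-voom and -0.000505 with fractional counts, and when tumors were left out it ran from -0.0876 to 0.0965. Under the same step Trim59 ran from -0.0364 to 0.0241, Trim8 from -0.0864 to 0.0283, Trim47 from -0.093 to 0.118, Trim3 from -0.045 to 0.0623, Trim27 from -0.0926 to 0.00446, Trim65 from -0.0442 to 0.0561, Trim2 from -0.13 to 0.0727, Trim68 from -0.0569 to 0.0171 and Trim30b from -0.0337 to 0.338.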
